A study of Mus musculus with 2 samples.

Results

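CTCF peaks that scored high in neural precursor cells (NPC) and had no counterpart nearby in embryonic stem cells (ESC) are described here. They are the autosomal peaks of the NPC list whose score lay above the median of that list (384.66) and that had no ESC peak within 1 kb of either edge. This left 1179 of the 51421 NPC peaks, called strong NPC-only peaks below. The ESC sample was the E14 line (E14Tg2A, IB10 cells) grown in serum with leukemia inhibitory factor in conditioned medium. The NPC sample was derived from E14 ESC and grown on gelatin with N2 supplement, basic FGF and EGF. Chromatin immunoprecipitation used the same anti-CTCF antibody in both, and no genotype change or treatment distinguishes them in the labels. Both come from 1 parental line, and there is 1 library per cell type. Variation between cultures was not measured, and each value describes these libraries only. A peak list carries no expression values, so the labelled cell types could not be set beside marker genes.

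CTCF is a DNA-binding protein with an array of zinc fingers that recognises a long motif and, together with cohesin, holds the bases of chromatin loops. Most of its sites are known to be occupied in many cell types, while a smaller set is bound in some cell types and not in others, often at weaker sites. Cell-type-specific sites matter for loop mapping because a site present in only 1 cell type can add or remove a loop anchor between genes and enhancers. The study's title concerns the polarity of CTCF binding in looping. Polarity is read from the motif, and neither mm9 sequence nor mm9 gene positions were used here, so peaks are given by position only and no sequence is shown.

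The rule selects on the NPC score and on ESC peak positions, so the following counts are descriptions. Of the 25334 autosomal NPC peaks above the median, 24064 overlapped an ESC peak by at least 1 bp, 91 had an ESC peak within 1 kb without overlapping it, and 1179 (4.65%) had none. Among autosomal NPC peaks at or below the median, 35.2% had no ESC peak within 1 kb. A further 17 peaks of chromosome X met the score and distance conditions and were left out because the rule takes autosomes. Scores of the strong NPC-only peaks ran from 384.68 to 2046, with a median of 518 and an interquartile range of 443 to 677. Most therefore sat near the lower limit: 626 of them lay between 385 and 534, where they made up 12.4% (exact 95% interval 11.5 to 13.3) of the strong NPC peaks, and 16 lay above 1401, where they made up 0.316% (0.181 to 0.512). Only 17 ranked in the upper 10% of the NPC list.

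The limits of the rule pass through a continuous range. The lowest-scoring peaks kept were on chromosome 1 at 136219157 to 136219623 (score 384.68), chromosome 12 at 87271615 to 87271998 (384.7) and chromosome 6 at 81789242 to 81789779 (385.2). Peaks of the same kind just left out scored 384.66 on chromosome 2 (110050850 to 110051216), 384.58 on chromosome 15 (30623393 to 30623957) and 384.56 on chromosome 18. On the distance side, the nearest kept peaks were 1023 bp from an ESC peak on chromosome 15 (27395102 to 27395665), 1033 bp on chromosome 11 (19433764 to 19434146) and 1050 bp on chromosome 4 (104040967 to 104041802). Peaks left out at 996 bp on chromosome 10 and at 983 bp on chromosomes 8 and 15 were left out by a narrow margin.

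Strong NPC-only peaks were as wide as shared NPC peaks of the same score. Their median width was 476 bp (95% interval of the median 470 to 481, interquartile range 419.5 to 534). The comparison set was the 22693 shared autosomal NPC peaks within the same score range, whose unadjusted median was 522 bp. Shared peaks scored higher, with a median of 849.69, and in this list width went with score. After the shared peaks were reweighted to the score distribution of the strong NPC-only peaks over 10 bins, their median width was 479 bp (interquartile range 424 to 532), inside the interval of the strong NPC-only peaks. In the lowest-scoring 393 peaks, up to a score of 463, both classes had a median width of 447 bp (439 to 457 for NPC-only, 444 to 451 for shared). From 463 to 608 the medians were 465 bp (454 to 477) and 472 bp (469 to 475). Above 608 they were 523 bp (514 to 534) and 546 bp (544 to 548), and within that range shared peaks more often had high scores.

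**Figure D1:**
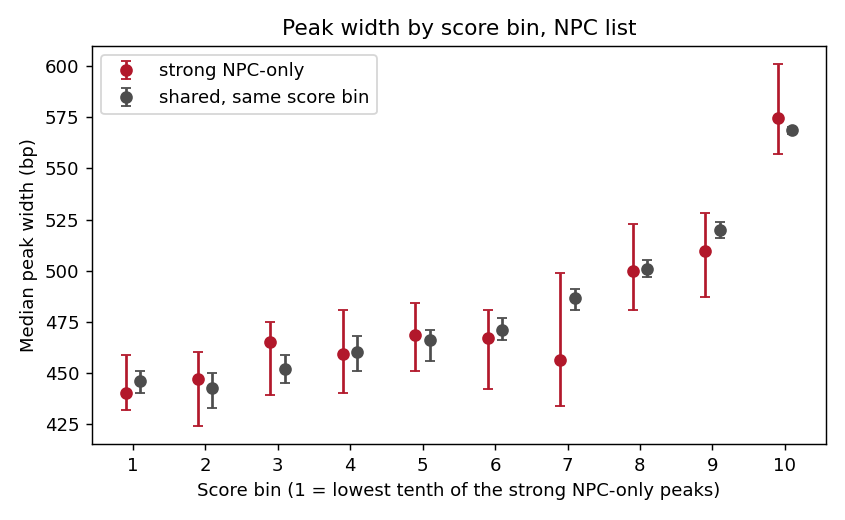
Median peak width in bp (vertical axis, not starting at 0) against score bin, for 10 bins that each hold 115 to 120 strong NPC-only peaks; points are medians and bars their 95% order-statistic intervals. Both classes widen from about the same level in bin 1 (440 and 446 bp) to bin 10 (574.5 and 569 bp), and the clearest departure is bin 7 (456.5 against 486.5 bp), where the intervals still overlap.

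In the highest bin, from a score of 899 upwards, 118 strong NPC-only peaks had a median width of 574.5 bp (557 to 601), and shared peaks 569 bp (567 to 570), although the median score in that bin was 1091 for NPC-only and 1257 for shared peaks. The score limit was also raised to the 75th percentile of the NPC list. The 145 remaining peaks were then 20 bp wider than score-matched shared peaks (interval 1 to 37). At the median limit the difference was -3 bp with an interval that spans both signs (-9 to 2), so only the higher limit gave a difference. Without chromosome 15 the median was 474 bp (468 to 480) against 478 bp for reweighted shared peaks, and on chromosome 15 alone 488 bp (470 to 510) against 494 bp. Single peaks ranged widely. The widest, on chromosome 11 at 75267506 to 75268608, measured 1103 bp and scored 1235. The next were 1052 bp on chromosome 8 (80247617 to 80248668, score 891) and 977 bp on chromosome 2 (62483933 to 62484909, score 573). The narrowest were 112 bp on chromosome 4 (50098477 to 50098588, score 401), 176 bp on chromosome 13 (30660375 to 30660550, score 594) and 236 bp on chromosome 19 (10463540 to 10463775, score 547).

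Most strong NPC-only peaks lay several kilobases from any ESC peak. The median distance from edge to edge was 12053 bp (11261 to 13183), with an interquartile range of 5030.5 to 29030 bp and a maximum of 378914 bp. The rule sets the minimum at 1 kb, so only the spread above it is informative. Between 1 and 2 kb lay 82 peaks (6.96%, 5.57 to 8.56), whereas 669 (56.7%, 53.9 to 59.6) lay more than 10 kb away, 162 (13.7%, 11.8 to 15.8) more than 50 kb and 60 (5.09%, 3.91 to 6.502) more than 100 kb. Of the reweighted shared peaks, 8.74% had their nearest other ESC peak between 1 and 2 kb away. Score-matched shared peaks had their nearest other ESC peak at a median of 8034 bp, and 44.0% of them had none within 10 kb. Part of that gap is set by the rule. When the shared peaks were also required to have no other ESC peak within 1 kb, their median was 9753 bp and 49.2% had none within 10 kb, still below the intervals of the strong NPC-only peaks.

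Distances to shared sites followed the same order. The nearest NPC peak that overlapped an ESC peak was a median of 15469 bp away (14266 to 16599) from a strong NPC-only peak, against 10618 bp from a score-matched shared peak to the next shared peak and 12603 bp for shared peaks with no other ESC peak within 1 kb. More than 100 kb from any shared site lay 92 strong NPC-only peaks (7.80%, 6.34 to 9.48), compared with 5.20% of the reweighted shared peaks. Without chromosome 15 the medians were 15564 bp (14215 to 17191) and 10656 bp, so the difference did not rest on that chromosome. On chromosome 15 itself they were 15092 bp (10630 to 19910) and 9160 bp.

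**Figure D2:**
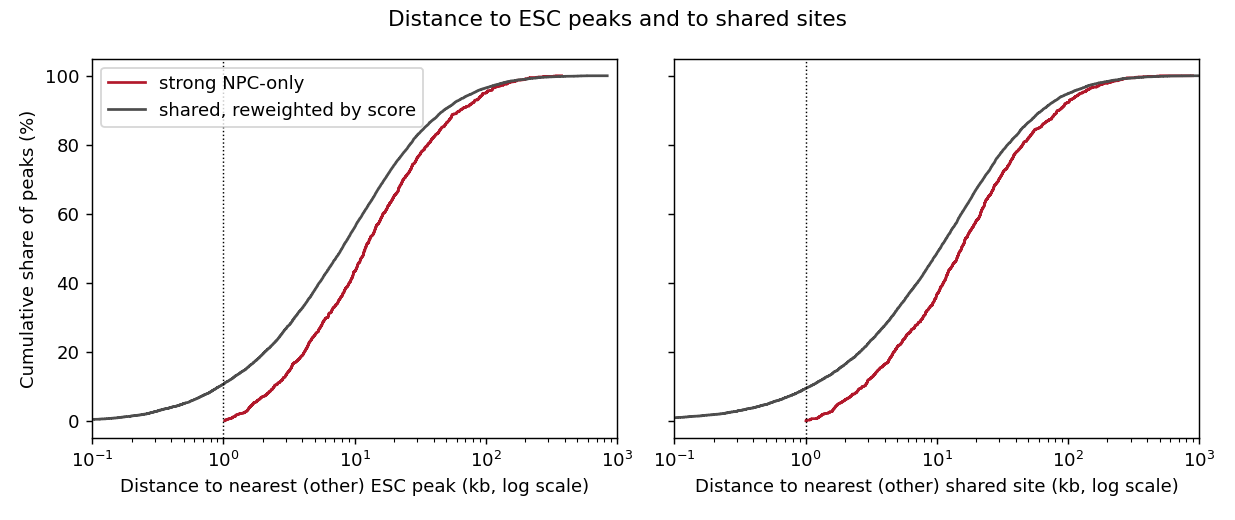
Cumulative share of peaks (%) against distance in kb on a log axis, to the nearest ESC peak (left; for shared peaks the nearest ESC peak that they do not overlap) and to the nearest other shared site (right); the dotted line is the 1 kb limit of the rule. The strong NPC-only curve begins at 1 kb and stays to the right of the score-reweighted shared curve over most of the range, with medians of 12053 against 8034 bp on the left and 15469 against 10618 bp on the right.

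The intervals between neighbouring shared sites in which these peaks fell were long. The distance from the shared site on the left to that on the right had a median of 81304 bp (72953 to 86508) around strong NPC-only peaks. It was 64207 bp around reweighted shared peaks, each left out of its own interval, and 69991 bp for those with no other ESC peak within 1 kb. Within the interval the strong NPC-only peaks sat no nearer to the middle than this last set: the shorter arm was a median fraction of 0.24 (0.22 to 0.26) of both arms together, against 0.23. The local number of peaks was also alike. Within 100 kb of the centre there was a median of 6 other NPC peaks (6 to 7, interquartile range 4 to 10) around strong NPC-only peaks and 6 (4 to 10) around reweighted shared peaks. For ESC peaks, with the overlapping ones left out, the medians were 6 and 7, and 6 and 6 when the shared peaks had no other ESC peak within 1 kb. No other NPC peak within 100 kb was found for 31 strong NPC-only peaks (2.63%, 1.79 to 3.71), against 3.39% of the reweighted shared peaks. Along the chromosomes, each successive 20% of the NPC peaks in order of position held between 18.4% and 22.1% of the strong NPC-only peaks.

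Most strong NPC-only peaks stood alone, but near one another they were more frequent than near shared peaks. The nearest other strong NPC-only peak was a median of 421091 bp away (363692 to 468759). Another was present within 50 kb for 164 of them (13.9%, 12.0 to 16.0), within 10 kb for 46 (3.90%, 2.87 to 5.17) and within 1 kb for 14 (1.19%, 0.651 to 1.98). Without chromosome 15 the share within 50 kb was 13.2% (11.2 to 15.4), and on chromosome 15 it was 21.1% (13.9 to 29.96). Such shares depend on how many such peaks there are, so the makeup of the neighbourhood was set against that of shared peaks. Of the strong NPC peaks whose centres lay 1 to 10 kb from a strong NPC-only peak, 9.78% (40 of 409) were themselves strong NPC-only, against 2.77% around reweighted shared peaks. From 10 to 50 kb the shares were 7.71% (142 of 1843) and 3.797%, and from 50 to 100 kb 5.75% (124 of 2158) and 4.33%. The background over all strong autosomal NPC peaks was 4.65%. The step was largest from 1 to 10 kb, where the rule sets part of it. A shared peak overlaps an ESC peak, and no strong NPC-only peak can lie within 1 kb of that ESC peak. From 200 to 500 kb the shares were 5.35% and 4.31%. A pair counts once from each of its peaks here, neighbours are not independent, and inside 10 kb the absence of ESC peaks around one site can extend to the next.

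Over all autosomes, the same neighbourhoods held a larger share of NPC-only peaks of any score and a smaller share of ESC-only peaks. Of all NPC peaks 10 to 50 kb away, 24.4% (857 of 3514) had no ESC peak within 1 kb around strong NPC-only peaks and 17.1% around reweighted shared peaks, beside 19.8% over all autosomal NPC peaks. At 1 to 10 kb, where the rule again sets part of the difference, the shares were 30.8% and 14.6%. At 200 to 500 kb they were 21.9% and 18.5%. Counted among NPC peaks at or below the median score only, the NPC-only share at 10 to 50 kb was 42.8% (715 of 1671) around strong NPC-only peaks and 32.3% around shared peaks, beside 35.2% over all such autosomal peaks. ESC peaks without an overlapping NPC peak made up 21.0% (681 of 3240) of the ESC peaks 10 to 50 kb from strong NPC-only peaks and 25.2% of those around shared peaks. An ESC-only peak lay within 10 kb of 138 strong NPC-only peaks (11.7%, 9.92 to 13.7) and of 19.0% of the reweighted shared peaks, for which ESC-only peaks inside 1 kb also count. Strong ESC-only peaks, meaning autosomal ESC peaks above the ESC median and more than 1 kb from any NPC peak, lay within 10 kb of 9 strong NPC-only peaks (0.763%, 0.350 to 1.44) and of 1.72% of the reweighted shared peaks. Within 50 kb the shares were 5.004% (59 peaks, 3.83 to 6.41) and 8.08%.

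**Figure D3:**
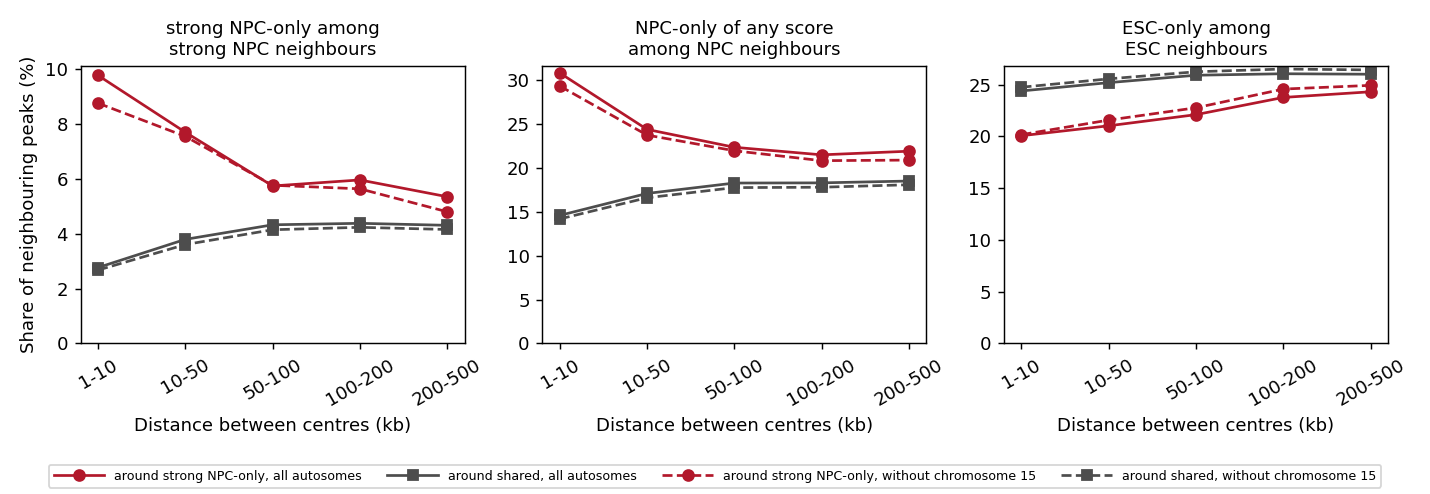
Share of neighbouring peaks (%) of a given class against the distance between centres in kb, around strong NPC-only peaks (red circles) and around shared NPC peaks reweighted by score (grey squares), with solid lines for all autosomes and dashed lines without chromosome 15. In the left and middle panels the red lines fall towards the grey ones with distance (from 9.78% to 5.35% against 2.77% to 4.31% on the left), and in the right panel the red lines lie below the grey ones at every distance.

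Without chromosome 15 the order of the shares was the same in each measure and at each distance plotted, and within it this was not so. With it left out, 7.55% of strong NPC peaks 10 to 50 kb from a strong NPC-only peak were of the same class, against 3.61% around shared peaks. Within chromosome 15 the shares were 18.2% (8 of 44) and 4.18% from 1 to 10 kb, 8.77% (20 of 228) and 7.75% from 10 to 50 kb, and 5.56% (14 of 252) and 7.80% from 50 to 100 kb. For NPC-only peaks of any score the order was reversed there at 50 to 100 kb, with 25.3% (126 of 499) and 28.1%. It was also reversed at 100 to 200 kb, with 26.3% (260 of 989) and 27.6%, and kept at the other distances. For ESC-only peaks the order was reversed at 1 to 10 kb, with 19.0% (12 of 63) of ESC peaks around strong NPC-only peaks and 14.9% around shared peaks. The same held at 100 to 200 kb, with 16.7% (138 of 827) and 15.6%, and at 200 to 500 kb, with 18.6% (409 of 2198) and 16.1%. From 10 to 50 kb the shares were 16.3% (55 of 338) and 16.6%. Counts on this chromosome are small. From 10 to 500 kb, the strong NPC-only share around its shared peaks was already above the 4.65% of all autosomes.

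When peaks less than 50 kb apart were joined, 1015 strong NPC-only peaks stayed single, 68 pairs formed, and 9 groups held 3 or more. The largest held 4 peaks over 33.4 kb on chromosome 5, from 118510432 to 118543804. Its members scored 443.85, 664.01, 425.7 and 559.82 in order of position and were 403, 471, 435 and 513 bp wide. The same stretch held 3 shared NPC peaks, and no ESC-only peak. Shared sites thus lay between members of this group.

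Groups of 3 were found on chromosomes 4, 7, 11, 13, 15 (3 groups) and 17. The strongest was on chromosome 15 from 84545019 to 84631093, with scores of 1178, 1167 and 1703 and widths of 695, 571 and 728 bp. It also held 4 shared NPC peaks in 86.1 kb and no ESC-only peak. The other groups of chromosome 15 lay at 97640282 to 97659885, with scores of 1118, 530 and 840 in 19.6 kb, and at 102346626 to 102423477, with scores of 537, 677 and 449. Each of these other groups held 1 ESC-only peak. The 3 groups of chromosome 15 differ in strength: all members of the first are above 1000, against 1 in the second and none in the third. On chromosome 13 the group from 103886753 to 103911412 scored 545, 706 and 857 in 24.7 kb around a single shared peak. On chromosome 4 it ran from 41551677 to 41593017, with scores rising along the chromosome from 412 over 735 to 1058, and on chromosome 7 from 53459375 to 53541318, with 941, 530 and 409. Neither of these 2 stretches contained an ESC-only peak. The chromosome 11 group (74945640 to 75004416) scored 848, 449 and 808, and the chromosome 17 group (25732361 to 25769529) 454, 560 and 700. Both held 1 ESC-only peak. The chromosome 17 group and the 19.6 kb group of chromosome 15 held no shared NPC peak.

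**Figure D4:**
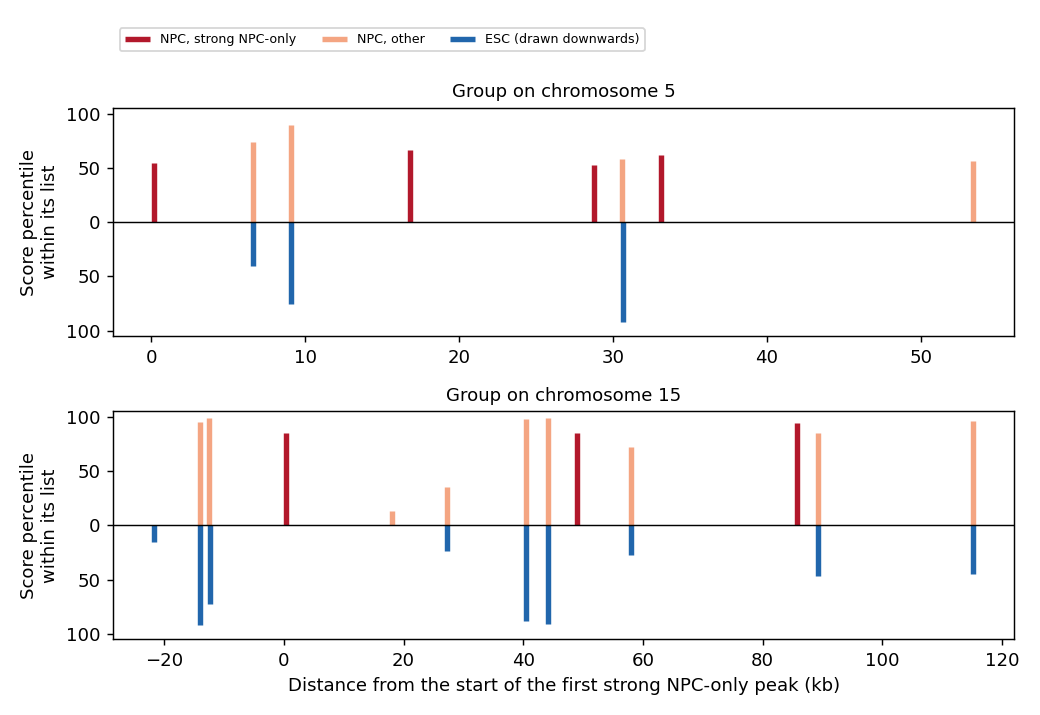
Score percentile within its own list (vertical axis, NPC upwards and ESC downwards) against distance in kb from the first strong NPC-only peak, for the group of 4 on chromosome 5 and the strongest group of 3 on chromosome 15. Each line is 1 peak; strong NPC-only peaks (dark red) have no ESC line beneath them, while most other NPC peaks (light) do.

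Chromosome 15 held the largest number and share of strong NPC-only peaks among the 19 autosomes. There were 109 there, 9.25% of all, and they made up 7.77% (6.42 to 9.30) of its 1403 strong NPC peaks, against 4.47% (4.21 to 4.74) over the other autosomes. Those ranged from 2.89% on chromosome 19 (1.84 to 4.30) to 6.23% on chromosome 13 (4.79 to 7.95) and 6.20% on chromosome 8 (4.97 to 7.63), whose intervals overlapped that of chromosome 15. Strong NPC peaks on chromosome 15 scored high, and from their scores, at the rates of the other autosomes, 3.34% would be NPC-only. For chromosomes 13 and 8 the shares from scores were 5.10% and 4.73%, and for chromosomes 2 and 5, observed at 3.43% (2.68 to 4.33) and 3.56% (2.73 to 4.55), they were 4.69% and 4.96%. Chromosome 15 also had 19 of the 81 strong NPC-only peaks above a score of 1000, followed by chromosome 4 with 11. These counts were not set against all NPC peaks above 1000 on each chromosome, so they show no enrichment by themselves. The median score of its strong NPC-only peaks, 543 (512 to 641), and that of the others, 516 (503 to 531), had overlapping intervals. Restricted to scores above the 75th percentile of the list, the shares were 2.71% (1.74 to 4.004) on chromosome 15 and 1.02% (0.844 to 1.21) elsewhere. The number of copies of chromosome 15 in either culture was not measured here, and its part in these values was not tested.

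**Figure D5:**
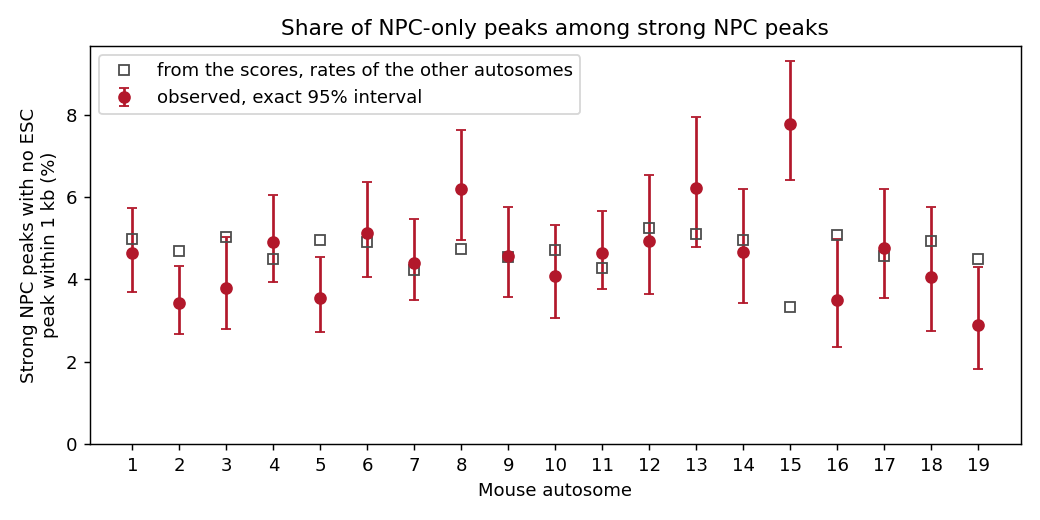
Share (%) of strong NPC peaks with no ESC peak within 1 kb on each of the 19 autosomes; red points with bars are observed shares with exact 95% intervals, and open squares are the shares computed from the peaks' scores at the rates of the other autosomes. Chromosome 15 is highest at 7.77%, above its square at 3.34%, and chromosome 19 lowest at 2.89%.

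The excess on chromosome 15 was not confined to a single segment. In 10 of its 11 segments of 10 Mb the share lay above the 4.47% of the other autosomes. The lowest of these was 4.65% (2 of 43, 0.568 to 15.8) between 40 and 50 Mb. The highest was 13.3% (10 of 75, 6.58 to 23.2) between 60 and 70 Mb. The exception was 10 to 20 Mb, with 2 of 56 (3.57%, 0.435 to 12.3). Only from 60 to 70, 80 to 90 and 90 to 100 Mb did the interval lie wholly above 4.47%. The last of these held 19 of 210 (9.05%, 5.535 to 13.8). The largest count was 25 of 256 (9.77%, 6.42 to 14.1) between 80 and 90 Mb. Elsewhere, 184 segments held at least 50 strong NPC peaks, and their median share was 4.26%. The highest of these, picked by their values, came to 13.6% (8 of 59, 6.04 to 24.98) between 90 and 100 Mb on chromosome 4. Between 100 and 110 Mb the share was 13.2% on chromosome 6 (7 of 53, 5.48 to 25.3) and 12.9% on chromosome 13 (9 of 70, 6.05 to 23.0). Such shares rest on few peaks, and more peaks stood behind the 11.3% of chromosome 4 between 100 and 110 Mb (17 of 151, 6.70 to 17.4).

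Shared sites around strong NPC-only peaks ranked slightly higher in NPC than those around shared peaks. At sites that matched 1-to-1 between the lists, the score percentile within the ESC list was subtracted from that within the NPC list, and the median was taken over the sites within 100 kb of each peak. Of the strong NPC-only peaks, 1087 had such a site. Their median was 1.95 percentile points (0.97 to 2.78), against -1.17 around reweighted shared peaks, and 57.3% (54.3 to 60.3) of them were above 0, against 45.1%. Without chromosome 15 the medians were 0.87 (0.13 to 1.87) and -1.55. On chromosome 15 they were 9.92 (7.10 to 11.8) and 7.29, and 87.6% (79.8 to 93.2) were above 0, against 77.5%. The class medians thus differed by a few percentile points in either part, on a higher level on chromosome 15. There the shared median, 7.29, lay inside the interval of the strong NPC-only peaks, and the shared percentage above 0, 77.5%, lay below theirs. The difference is small beside the spread, since the interquartile range over all strong NPC-only peaks was -6.17 to 9.55.

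The 20 strong NPC-only peaks with the highest scores showed no single arrangement. They ranked from 1376 to 5784 in the NPC list and were 462 to 811 bp wide, with a median of 590 bp. Their distance to an ESC peak ran from 1533 to 201156 bp, with a median of 13424 bp, and 5 were on chromosome 15. Another strong NPC-only peak lay within 50 kb of 6 of them. The top peak, on chromosome 11 at 106150525 to 106151125, was 601 bp wide in a 25.5 kb interval between shared sites and had 10 other NPC peaks within 100 kb. In contrast, the third, on chromosome 15 at 65424428 to 65425121, sat in an interval of 312 kb with 4 NPC peaks around it. The sixth, on chromosome 1 at 137028904 to 137029547, lay within a 5.78 kb interval, 1693 bp from a shared site. Strong NPC-only sites thus occurred both in dense and in sparse stretches.

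Ranks 11 to 20 add further examples. The peak on chromosome 7 at 128682815 to 128683455 scored 1509 and was 2471 bp from an ESC peak. On chromosome 6, a peak at 100112890 to 100113403 scored 1505 and had no shared site within 258 kb, although another strong NPC-only peak was 35.2 kb away. On chromosome 1 the scores were 1502 at 135858157 to 135858672 and 1448 at 83404623 to 83405252. The second of these had no other NPC peak within 100 kb, in a 494 kb interval between shared sites. On chromosome 9, a peak at 16304816 to 16305626 was 811 bp wide, scored 1430 and had another strong NPC-only peak 0.76 kb away, but no ESC peak within 201156 bp. It is the most remote of the 20. A peak on chromosome 15 at 57524421 to 57525122 scored 1423, and one on chromosome 6 at 54759483 to 54759988 scored 1397. On chromosome 4 the peak at 103364335 to 103364798 scored 1363. Only 1 ESC peak lay within 100 kb of it. Its percentile difference at shared sites, 47.89 points in favour of NPC, thus rests on 1 site. No other of the 20 came near that value. In favour of NPC the next was 15.13. The largest in favour of ESC were -25.14 for the peak at 32570749 on chromosome 8 and -17.21 for that at 24954389 on chromosome 2. The last 2 were on chromosome 3 at 107690502 to 107691080 (score 1356, 11 other NPC peaks within 100 kb) and on chromosome 9 at 36921890 to 36922564 (score 1329, another strong NPC-only peak 10.1 kb away).

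The 5 most isolated strong NPC-only peaks had scores from 414 to 852. The farthest from any ESC peak, on chromosome 2 at 138474274 to 138474753, was 480 bp wide, scored 645 and lay 378914 bp away. The second was on chromosome 18, 344499 bp away, with a score of 852. The third, on chromosome 9 at 76837744 to 76838203, was 328623 bp away and scored 426. Another on chromosome 18 (279371 bp, score 764) and one on chromosome 12 at 47461915 to 47462289 (273643 bp, score 414) followed. The first 3 of these 5 by distance had no other NPC peak within 100 kb, and none of the 5 had an ESC peak in that window. All lay between shared sites 674 to 1116 kb apart.

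The mirrored rule gave a set of nearly the same size in ESC. Of 26668 autosomal ESC peaks above the ESC median, 1207 (4.53%) had no NPC peak within 1 kb. They too had the width of score-matched shared peaks of their own list, with medians of 624 bp (618 to 628) and 625 bp. Their nearest shared ESC peak was a median of 12255 bp away (11205 to 13348), against 10743 bp for reweighted shared ESC peaks, a smaller step than in NPC. The rule sets part of such a step. How much of it remains against shared ESC peaks with no other NPC peak within 1 kb was not computed. Among strong ESC peaks 10 to 50 kb away, 9.36% were of the same class, against 4.45% around shared ESC peaks. Chromosome 15 was on the other side here, with 18 such peaks, 1.60% of its strong ESC peaks. The differences between the mirrored sets were not tested.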

How the data were processed

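CTCF ChIP-seq had been carried out in 1 ESC and 1 NPC library by SOLiD sequencing, per the labels' protocols. The peak caller was MACS, run per library, per the file headers. The build is mm9, per the submitters' processing notes. Its version and threshold, the aligner and the control were not given in the sources used here. Both track names end in the word CONTROL, which the files leave unexplained; following the labels, the lists were read as CTCF peaks. Each peak has a deposited score, which the files do not define, so levels were set side by side only within 1 list. Depth is unknown.

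Edge-to-edge gaps, overlaps of at least 1 bp, counts within 100 kb of a centre and 1-to-1 pairs were computed from the 2 lists, and positions are given 1-based. Shared NPC peaks were reweighted to the scores of the strong NPC-only peaks over 10 bins; reweighted values carry no interval. Shares have exact Clopper-Pearson 95% intervals and medians order-statistic 95% intervals, covering counting error only, as if peaks were independent. No test between cell types was possible with 1 library each. The selection step was run on simulated lists with planted peaks that met the rule by construction, which checks the code only. Python 3.11.15, numpy 2.4.6, pandas 2.3.3, scipy 1.17.1 and matplotlib 3.10.9 were used.

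The peaks, comparison classes and settings were chosen with earlier results of these data known. Named peaks follow a rule: the 20 highest scores, the 5 farthest from ESC, the 3 widest and 3 narrowest, the 3 on each side of both limits, and the 3 groups with most members, which a tie extended to 9. Comparisons with genes, gene lists and the CTCF motif were foreseen and not made, because no mm9 annotation or sequence was used. Alternatives covered the distance limit, the score limit, chromosome 15, the overlap that counts as shared, window sizes and the score reweighting.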

Additional observations from a re-analysis of the deposited data

How the results depend on the processing

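Of 55 alternative values, 29 stayed within the interval of the value first given (for counts, within 1.5 times), 25 moved outside it and 1 changed sign. Differences below are strong NPC-only minus score-reweighted shared peaks. With no ESC overlap in place of 1 kb, the difference in distance to an ESC peak was 2972.5 bp and to a shared site 3556 bp (first 4019 and 4851 bp). With a 10 kb limit, 669 peaks remained, these differences were 17660 and 18036 bp, the differences in NPC and ESC peaks within 100 kb were -1 and -2, 8.67% had another such peak within 50 kb, and the chromosome 15 share was 4.49% (2.53% elsewhere). Larger distances follow from that limit itself. Above the 75th percentile of scores, 145 peaks remained, the width difference was 20 bp (first -3), the ESC peak difference 0, 6.21% had another within 50 kb, the chromosome 15 share was 2.71%, and the difference in strong NPC-only neighbours at 10 to 50 kb was 2.49 percentage points (first 3.91). With 50% reciprocal overlap the ESC peak difference was 0 (first -1). With 500 kb windows the NPC and ESC peak differences were 2 and 0 and the percentile difference 1.63 (first 3.12). Another such peak lay within 20 kb of 6.79% and within 100 kb of 21.4%. Without reweighting, width differed by -46 bp and shared-site distance by 6204 bp. Added after seeing the data: against shared peaks with no other ESC peak within 1 kb the distances differed by 2300 and 2866 bp, and at 50 to 100 kb the neighbour difference was 1.42 points. The cause of these moves was not tested, apart from those that the setting itself fixes. Settings for gene starts, gene lists and the motif were not run. No paired analysis was possible because each cell type had 1 library, and no library could be left out. Depth is unknown, so an ESC site below the calling limit cannot be told apart from an absent one.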
